A study of Arabidopsis with 14 samples.

Results

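Transcript levels of 39 genes of the MAP kinase cascades were examined in whole Arabidopsis seedlings with and without NaCl. The genes are those listed under a name made of MPK, MKK, MEKK, MAPKKK, MKKK, ANP, ZIK or RAF and a number, with a level of 1 FPKM or more in 2 or more of the 14 libraries. FPKM is the number of fragments per kilobase of transcript, scaled to the mapped fragments of the library. Of 37980 listed genes, 43 had such a name and 39 reached the minimum, and they comprise 16 MAPKKK genes, 6 MKK genes and 17 MPK genes. The 4 others were MKK7 with at most 0.642 FPKM, MPK10 with at most 0.199 FPKM, MKK10 with at most 0.125 FPKM and MKK8, which was listed at 0 in every library. Just inside the minimum was MAPKKK16, which reached 1 FPKM in 5 libraries with a highest value of 1.86 FPKM. MKK1, MPK8, MPK13, ANP1, ANP2, ANP3 and MAPKKK3 are listed under older names, were therefore not among the 39 genes, and are described separately.

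A MAP kinase cascade passes a signal from receptors to the rest of the cell by phosphorylation. A MAPKKK phosphorylates an MKK, the MKK phosphorylates an MPK, and the MPK phosphorylates transcription factors and enzymes. In Arabidopsis, the cascade of MEKK1, MKK1, MKK2 and MPK4 and that of MKK4, MKK5, MPK3 and MPK6 are known for responses to stress and to microbes. MAPKKK17 and MAPKKK18 act above MKK3 and the group C kinases MPK1, MPK2, MPK7 and MPK14 in signalling by abscisic acid, the hormone of salt and drought responses. The activity of these kinases depends on their phosphorylation, which was not measured here.

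The study compared WT (Col-0) with plants overexpressing AtC3H3, a CCCH zinc-finger protein gene, or its paralog AtC3H26, in the same background. Seedlings were 10 days old and grew in cycles of 8 h light and 16 h dark. The 6 NaCl libraries come from seedlings labelled AtC3H3 OX, seedlings labelled AtC3H26 OX and WT on filter paper with MS solution and 150 mM NaCl, and the 8 untreated libraries from seedlings labelled AtC3H3 OX, seedlings labelled AtC3H26 OX and 2 sets of WT numbered 1 and 2, with 2 libraries in each of these 7 groups. RNA of the 1, 2 and 4 h time points was combined according to the methods, which describe WT and AtC3H3 OX only. A modified CaMV 35S promoter and a hemagglutinin tag were used for AtC3H3, T3 homozygous plants of several lines were raised, and neither the line that was sequenced nor the construct for AtC3H26 is stated. No mock transfer to filter paper is named for the untreated seedlings, and so handling, time of day and NaCl cannot be told apart in any comparison with NaCl. Which of the WT sets goes with which line is not given by the labels.

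The levels of the target genes went against the labels of the lines. AtC3H3 (AT1G04990) had 14.8 and 13.5 FPKM in NaCl-treated seedlings labelled AtC3H3 OX, against 20.7 and 23.0 FPKM in NaCl-treated WT. AtC3H26 (AT2G32930) had 5.11 and 4.39 FPKM in NaCl-treated seedlings labelled AtC3H26 OX, against 7.97 and 7.50 FPKM in NaCl-treated WT. Each transcript was thus lower, and not higher, in the libraries labelled as its overexpressor, and the groups are therefore called by their labels. Whether these FPKM values count all reads of the transgenes is not given in the sources used here. FPKM sums of the libraries ranged from 665439 to 729899, and the estimated relative depth ranged from 0.638 to 1.07. The absolute depth cannot be read from the FPKM values. Replicates correlated with Pearson's r of 0.975 to 0.980 across genes, which are not independent. The summed level of 3 leaf genes was 9411 to 10312 FPKM over the NaCl libraries and 11589 to 12591 FPKM over the untreated libraries, and that of 5 seed and flower genes was at most 1.85 FPKM.

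Without NaCl, the MPK genes had the highest transcript levels. MPK17, whose product regulates peroxisome division, had a median of 54.2 FPKM over the 8 untreated libraries (41.8 to 57.2 FPKM). MPK20 followed with a median of 34.6 FPKM (30.8 to 41.2 FPKM), MPK6 with 34.2 FPKM (32.1 to 37.5 FPKM) and MPK3 with 32.5 FPKM (21.8 to 53.2 FPKM). The ranges of MPK20, MPK6 and MPK3 overlapped, and their order was not the same in every library. The highest MKK gene was MKK2 with a median of 20.4 FPKM (18.2 to 21.9 FPKM), and the highest MAPKKK gene was MAPKKK5 with a median of 11.6 FPKM (10.7 to 15.3 FPKM), which overlapped with RAF11 at 11.4 FPKM (9.06 to 13.3 FPKM). At the low end, MAPKKK16, MAPKKK18, MAPKKK19, MAPKKK21, MPK11 and MPK14 stayed below 1 FPKM in each of the 8 untreated libraries. These 6 genes met the minimum only through NaCl libraries, and so their higher values with NaCl follow in part from how the genes were chosen.

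With NaCl, the largest changes in WT were those of 7 MAPKKK genes, all of them from MAPKKK13 to MAPKKK21. In WT, 18 of the 39 genes were higher with NaCl and 0 were lower at an adjusted p under 0.05 in limma (2 NaCl libraries against 4 untreated libraries), whereas 25.6% of the 20436 genes tested were higher and 25.5% lower. Of these 18 genes, 11 were over 2-fold higher, as were 8.64% of all genes tested. The median log2 difference was 0.27 over the 39 genes and -0.02 over all genes tested. The 18 genes consisted of 9 of 16 MAPKKK genes, 2 of 6 MKK genes and 7 of 17 MPK genes. Beside this, genes for salt and abscisic acid responses, such as RD29A, were higher in NaCl-treated WT in 7 of 7 cases, and so were 7 of 9 circadian clock genes, whose summed level was 424 to 436 FPKM in NaCl-treated WT and 183 to 196 FPKM in untreated WT. Of the 3 leaf genes, 3 were lower with NaCl in seedlings labelled AtC3H3 OX, 2 in those labelled AtC3H26 OX and 2 in WT. Of 3 root genes, 1 was lower with NaCl in each genotype, and 1 was higher in each line but 0 in WT. In WT the root gene COBL9 was tested only through the untreated libraries and so had to differ. The part of the time of day and of leaf or root tissue in the changes was not tested. Whole seedlings were sampled, so that a change in the share of a cell type and a change in RNA per cell cannot be told apart.

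The salt response was also tested within each line. For AtC3H3 OX, 21 of 39 genes were higher with NaCl and 2 were lower, beside 31.4% and 29.9% of the 19976 genes tested (limma, 2 against 2), and 10 were over 2-fold higher, beside 8.75%. The median was 0.20 over the 39 genes and 0.00 over all genes. For AtC3H26 OX, 18 of 37 genes were higher and 3 lower, beside 29.2% and 26.4% of 20055 genes, and 11 were over 2-fold higher, beside 8.27%, with medians of 0.21 and 0.00. Here MAPKKK16 and MAPKKK20 did not reach 1 FPKM in 2 libraries of the comparison, the minimum for a test. In each of the 3 comparisons, 6 genes passed that filter only through the NaCl libraries, and such genes had to differ. In WT and in seedlings labelled AtC3H3 OX these were the 6 genes named above, and in seedlings labelled AtC3H26 OX they included MAPKKK15 in place of MAPKKK16. The genes called higher in all 3 comparisons numbered 16 of 37, beside 20.9% of 19548 genes, and 0 were lower in all 3, beside 17.4%. The 16 genes were MAPKKK13, MAPKKK14, MAPKKK15, MAPKKK17, MAPKKK18, MAPKKK19, MAPKKK21, MEKK1, MKK5, MKK9, MPK5, MPK6, MPK7, MPK11, MPK14 and MPK19. Of these, MAPKKK18, MAPKKK19, MAPKKK21, MPK11 and MPK14 passed the filter only through the NaCl libraries in all 3 comparisons and so had to differ. When each library was left out in turn, 12 of the 16 were called in every instance, and the exceptions were MEKK1, MKK5, MKK9 and MPK5.

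**Figure D1:**
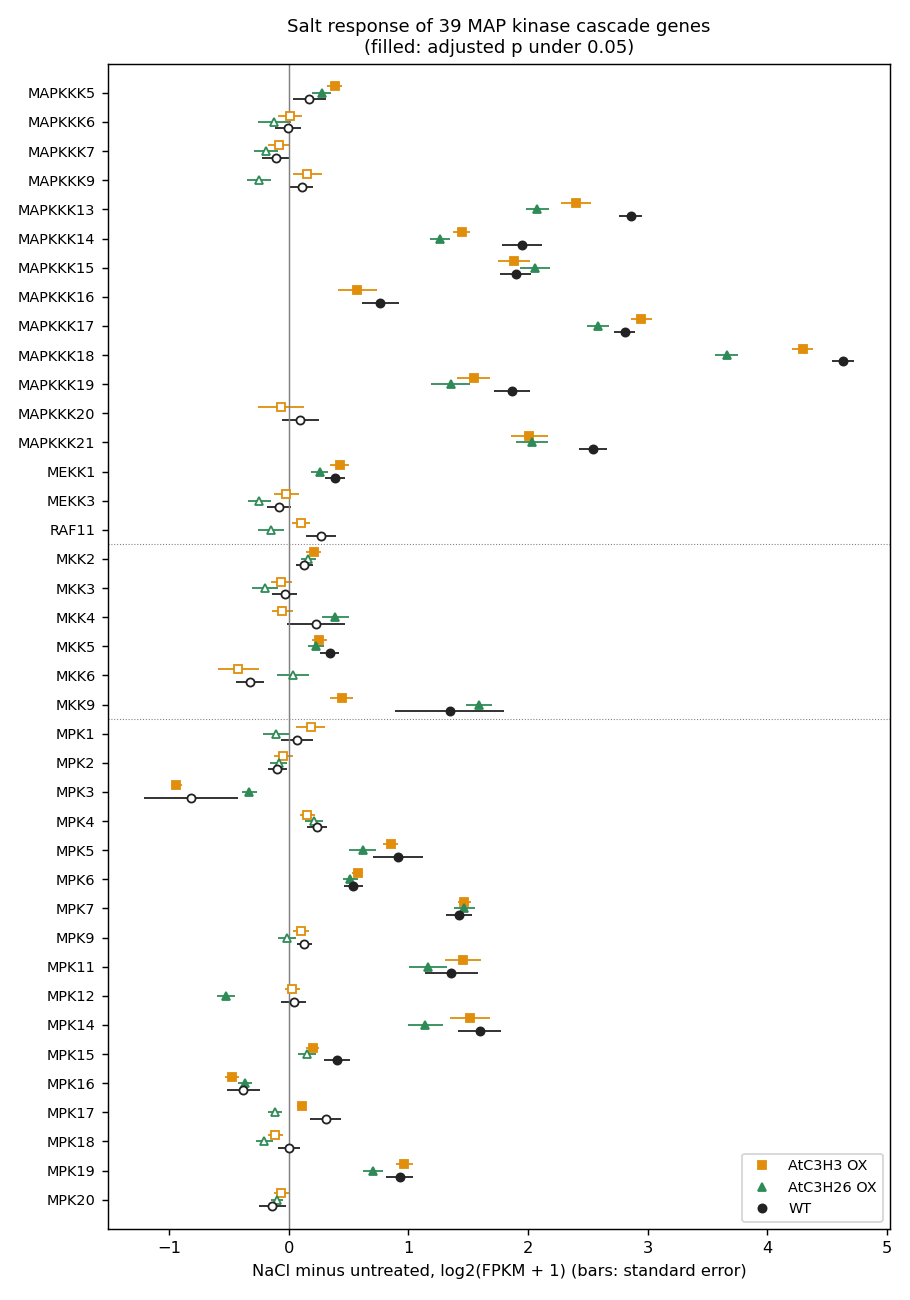
Difference between NaCl and untreated libraries, in log2(FPKM + 1), for each of the 39 genes in seedlings labelled AtC3H3 OX (squares), seedlings labelled AtC3H26 OX (triangles) and WT (circles), with standard errors as bars. Filled symbols mark an adjusted p under 0.05, and dotted lines part the MAPKKK, MKK and MPK genes. MAPKKK18 lies farthest to the right at 3.66 to 4.63, and MPK3 lies left of 0 in all 3.

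MAPKKK18 (AT1G05100) had the largest change of the 39 genes in each salt comparison. It had 29.9 and 31.8 FPKM in NaCl-treated seedlings labelled AtC3H3 OX, 19.3 and 18.7 FPKM in those labelled AtC3H26 OX and 39.6 and 39.8 FPKM in NaCl-treated WT, against 0.534 to 0.742 FPKM over the 8 untreated libraries (median 0.604). All NaCl libraries lay far above all untreated ones. The log2 difference in WT was 4.63 (standard error 0.09, adjusted p = 7.63e-07), on a scale that understates changes of genes near 1 FPKM. MAPKKK18 was tested only through the NaCl libraries and so had to differ. MAPKKK17 (AT2G32510), its closest relative, had 15.0 to 22.4 FPKM over the 6 NaCl libraries (median 17.1) and 1.33 to 2.41 FPKM over the untreated ones (median 1.92), with a log2 difference of 2.81 in WT (standard error 0.09, adjusted p = 2.59e-06). The order of the pair was reversed with NaCl. The ratio of MAPKKK18 to MAPKKK17 was 1.18 to 1.91 over the 6 NaCl libraries and 0.243 to 0.494 over the 8 untreated libraries.

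MAPKKK13 and MAPKKK14 behaved alike at higher untreated levels. MAPKKK13 (AT1G07150) had 29.6 and 27.2 FPKM in NaCl-treated seedlings labelled AtC3H3 OX, 20.8 and 21.8 FPKM in those labelled AtC3H26 OX and 28.0 and 28.2 FPKM in NaCl-treated WT, against 2.6 to 5.29 FPKM over the untreated libraries. Its log2 difference in WT was 2.86 (standard error 0.10, adjusted p = 3.11e-06). MAPKKK14 (AT2G30040), which takes part in the wound response, had 22.5 to 29.6 FPKM with NaCl and 4.54 to 10.3 FPKM untreated, and its log2 difference in WT was 1.95 (standard error 0.17, adjusted p = 0.000145). No NaCl library of either gene overlapped with an untreated one. MAPKKK13 was at 0.857 to 1.11 times the level of MAPKKK14 with NaCl and at 0.382 to 0.573 times untreated, so that both genes stood at about the same level with NaCl.

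The remaining genes of this clade were low. MAPKKK15 had 6.05 to 6.60 FPKM with NaCl and 0.639 to 1.18 FPKM untreated, MAPKKK21 had 3.08 to 5.70 FPKM with NaCl and 0.0639 to 0.322 FPKM untreated, and MAPKKK19 had 2.84 to 4.55 FPKM with NaCl and 0.191 to 0.731 FPKM untreated. Their log2 differences in WT were 1.90, 2.54 and 1.87, each with a standard error of at most 0.15 and an adjusted p of at most 0.000114 (limma). MAPKKK16 had 0.880 to 1.86 FPKM with NaCl and 0.364 to 0.737 FPKM untreated, with a log2 difference of 0.77 in WT (adjusted p = 0.00551). In WT, MAPKKK16, MAPKKK19 and MAPKKK21 were tested only through the NaCl libraries and so had to differ. MAPKKK20 (AT3G50310), whose product is known for abscisic acid and salt responses and for microtubule organization, was the exception of the clade. It had 0.617 to 1.14 FPKM with NaCl and 0.595 to 1.16 FPKM untreated, these ranges coincided, and its log2 difference in WT was 0.10 (standard error 0.15). Summed over the 9 genes, the clade had 93.9 to 136 FPKM with NaCl and 13.0 to 20.1 FPKM untreated.

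**Figure D2:**
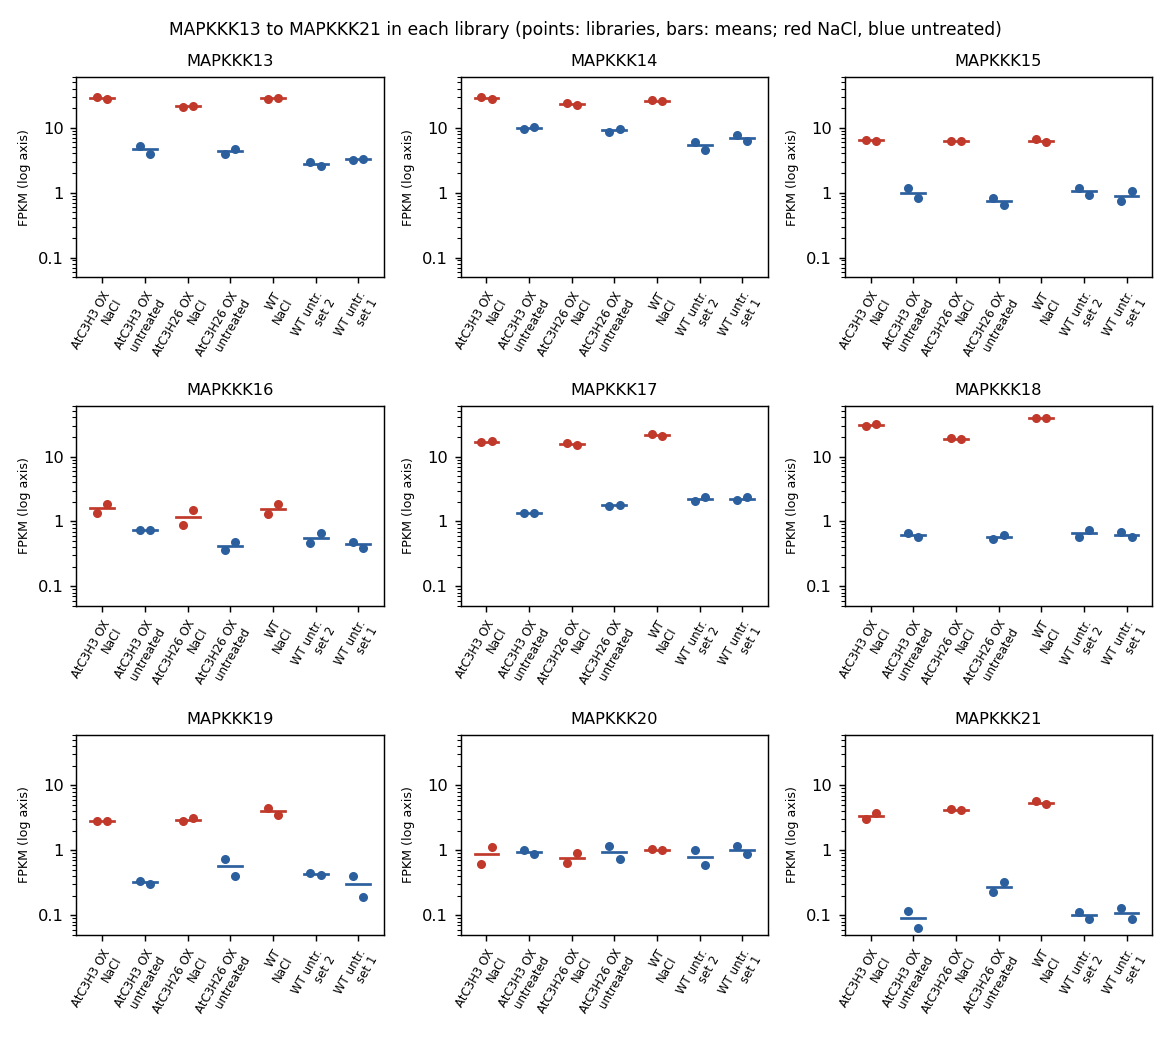
FPKM of MAPKKK13 to MAPKKK21 in each library, on a log axis that is the same in all panels, with NaCl groups in red to the left of the untreated groups of the same genotype in blue and a bar at each group mean of 2 libraries. For 8 of the 9 genes the 6 NaCl libraries lie above the 8 untreated libraries, as in 22.7% of 21083 genes. MAPKKK16, MAPKKK18, MAPKKK19 and MAPKKK21 met the minimum only through NaCl libraries. The points of MAPKKK20 overlap.

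The other MAPKKK genes changed little. MEKK1 (AT4G08500), which acts above MKK1 and MKK2, had 12.8 and 12.8 FPKM in NaCl-treated WT, against 8.94 and 9.14 FPKM in untreated WT of set 2 and 10.5 and 9.66 FPKM in set 1. The groups did not overlap, and its log2 difference was 0.39 (standard error 0.09, adjusted p = 0.00867). The difference was 0.43 in seedlings labelled AtC3H3 OX (adjusted p = 0.0044) and 0.26 in those labelled AtC3H26 OX (adjusted p = 0.0288). Its neighbours and relatives on chromosome 4, MAPKKK9, also called MEKK2, and MEKK3, were not called in any salt comparison, and reads that these near copies share may have been split between them. MAPKKK5, which links receptor-like cytoplasmic kinases to MKK4 and MKK5, was called higher in seedlings labelled AtC3H3 OX (0.38) and in those labelled AtC3H26 OX (0.27, lost after quantile normalization, without NaCl replicate 2 and without either untreated replicate), and had a difference of 0.17 in WT that did not pass the test. MAPKKK6 and MAPKKK7, which are needed for pollen and cell division, and RAF11, a Raf-like kinase of abscisic acid responses, were not called in any salt comparison.

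Of the MKK genes, MKK9 (AT1G73500), which acts above MPK3 and MPK6 and promotes ethylene synthesis, had the largest change in WT. It had 15.7 and 17.7 FPKM in NaCl-treated seedlings labelled AtC3H3 OX, against 11.1 and 12.9 FPKM in those labelled AtC3H3 OX untreated. In seedlings labelled AtC3H26 OX it had 16.8 and 17.7 FPKM with NaCl, against 5.66 and 4.54 FPKM untreated. In WT it had 19.1 and 19.5 FPKM with NaCl, against 4.25 and 3.76 FPKM in untreated set 2 and 12.2 and 11.2 FPKM in untreated set 1. All NaCl libraries lay above all untreated libraries, but the untreated ones fell into low and high groups. The log2 difference was 0.44 in seedlings labelled AtC3H3 OX (standard error 0.10, adjusted p = 0.00906), 1.59 in those labelled AtC3H26 OX (standard error 0.11, adjusted p = 0.000168) and 1.35 in WT (standard error 0.46, adjusted p = 0.0449). The WT value was 2.02 against set 2 alone and 0.67 against set 1 alone, and its call was lost without either NaCl library or either library of set 2, with a pseudocount of 0.1, without a filter and with the replicate block, with an adjusted p of up to 0.18 over the alternatives.

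MKK5 (AT3G21220) was modestly higher with NaCl, whereas its close paralog MKK4 (AT1G51660) was not called in WT. MKK5 had 16.7 and 15.9 FPKM in NaCl-treated WT and 11.7 to 13.4 FPKM in the 4 untreated WT libraries, which did not overlap, and its log2 difference was 0.34 (standard error 0.08, adjusted p = 0.00942). The differences were 0.25 and 0.23 in seedlings labelled AtC3H3 OX and AtC3H26 OX, both called, and an annotated overlap of 459 bp with the gene 4CL5 leaves the source of part of these reads uncertain. MKK4 had 5.52 and 5.94 FPKM in NaCl-treated WT, against 3.59 and 3.48 FPKM in set 2 and 6.70 and 5.86 FPKM in set 1, and thus lay between the sets. It was called higher in seedlings labelled AtC3H26 OX, where it had 6.15 and 5.19 FPKM with NaCl and 4.04 and 4.11 FPKM untreated (log2 difference 0.39, adjusted p = 0.0301), a call lost without replicate 1 with NaCl or either untreated replicate. MKK2 (AT4G29810), the highest MKK gene, had 21.6 to 25.0 FPKM with NaCl and 18.2 to 21.9 FPKM untreated. It was called higher only in seedlings labelled AtC3H3 OX (log2 difference 0.21, adjusted p = 0.0302), a call that was lost after quantile normalization, without NaCl replicate 1 and without either untreated replicate. The difference in WT was 0.13 (standard error 0.07, adjusted p = 0.178). MKK3 (AT5G40440), the MKK that MAPKKK17 and MAPKKK18 act on, had 4.79 to 5.65 FPKM with NaCl and 5.0 to 6.38 FPKM untreated. Its log2 differences of -0.06 in seedlings labelled AtC3H3 OX, -0.20 in those labelled AtC3H26 OX and -0.03 in WT were not called. MKK6, which acts in cytokinesis, was not called in any salt comparison.

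Among the MPK genes of group C, which act below MKK3, MPK7 and MPK14 were higher with NaCl while MPK1 and MPK2 were not called. MPK7 (AT2G18170) had 29.0 and 29.5 FPKM in NaCl-treated seedlings labelled AtC3H3 OX, 28.5 and 26.6 FPKM in those labelled AtC3H26 OX and 32.2 and 29.5 FPKM in NaCl-treated WT, against 8.65 to 12.7 FPKM over the untreated libraries (median 10.1). The groups lay far apart in each genotype, and the log2 differences were 1.47 in seedlings labelled AtC3H3 OX, 1.47 in those labelled AtC3H26 OX and 1.42 in WT (standard error 0.11, adjusted p = 8.57e-05 in WT). MPK2 (AT1G59580), also of group C, had 14.4 to 17.3 FPKM with NaCl and 15.5 to 18.7 FPKM untreated, and these ranges overlapped. The ratio of MPK7 to MPK2 was accordingly 1.61 to 2.24 over the 6 NaCl libraries and 0.462 to 0.783 over the 8 untreated libraries. MPK14 had 2.42 to 4.78 FPKM with NaCl and 0.256 to 0.864 FPKM untreated, with a log2 difference of 1.59 in WT (standard error 0.18, adjusted p = 0.000493). MPK14 was tested only through the NaCl libraries and so had to differ.

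The group A kinase genes MPK6 and MPK3 differed in direction. MPK6 (AT2G43790) had 52.2 and 50.6 FPKM in NaCl-treated seedlings labelled AtC3H3 OX, 51.5 and 48.7 FPKM in those labelled AtC3H26 OX and 51.9 and 50.5 FPKM in NaCl-treated WT, against 32.1 to 37.5 FPKM over the untreated libraries. These groups did not overlap, and the log2 difference was 0.58 in seedlings labelled AtC3H3 OX, 0.51 in those labelled AtC3H26 OX and 0.54 in WT (standard error 0.08, adjusted p = 0.00141 in WT). MPK3 (AT3G45640) had 19.7 and 19.7 FPKM in NaCl-treated seedlings labelled AtC3H3 OX, against 39.0 and 38.3 FPKM untreated. In seedlings labelled AtC3H26 OX it had 20.6 and 20.2 FPKM with NaCl, against 26.6 and 25.1 FPKM untreated. In WT it had 18.3 and 19.2 FPKM with NaCl, against 21.8 and 22.6 FPKM in untreated set 2 and 53.2 and 49.6 FPKM in untreated set 1. The NaCl libraries lay within a narrow range and the untreated ones did not, so that the size of the difference varied with the untreated group.

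MPK3 was the only one of the 39 genes with all 6 NaCl libraries below all 8 untreated libraries. Of 21083 genes, 20.3% showed this pattern. In 16 of the 39 genes all 6 NaCl libraries lay above, a pattern that 22.7% of genes showed. These 16 included MAPKKK16, MAPKKK18, MAPKKK19, MAPKKK21, MPK11 and MPK14, which met the minimum only through NaCl libraries. Their place above thus follows in part from how the genes were chosen. The log2 difference of MPK3 was -0.94 in seedlings labelled AtC3H3 OX (standard error 0.05, adjusted p = 2.27e-05) and -0.33 in those labelled AtC3H26 OX (standard error 0.06, adjusted p = 0.00619). In WT the difference from both sets was -0.82 (standard error 0.40, adjusted p = 0.128) and was not called, since the sets differed from each other. Against set 1 alone it was -1.41 and against set 2 alone -0.23, and both were called. The WT response over the 39 genes was 20 higher and 3 lower against set 1 alone, beside 30.2% and 33.2% of genes, and 21 higher and 1 lower against set 2 alone, beside 28.8% and 25.9%. Over all alternatives the adjusted p of the WT difference ranged from 2.9e-08 to 0.34. The ratio of MPK6 to MPK3 was 2.42 to 2.83 over the NaCl libraries, 1.62 to 1.72 in untreated set 2, 0.604 to 0.681 in untreated set 1 and 0.604 to 1.72 over all untreated libraries.

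In group B, MPK5 and MPK11 were higher with NaCl and MPK4 was not called. MPK4 (AT4G01370) had 17.6 and 18.9 FPKM in NaCl-treated WT and 14.3 to 16.5 FPKM in the 4 untreated WT libraries, which did not overlap, and its log2 difference of 0.23 (standard error 0.08) had an adjusted p of 0.0514. Its annotated span shares 929 bp with the gene AT4G01380, and these reads cannot be told apart where strand was not used. MPK5 (AT4G11330) had 20.9 and 21.4 FPKM in NaCl-treated seedlings labelled AtC3H3 OX, 16.0 and 13.4 FPKM in those labelled AtC3H26 OX and 19.5 and 20.3 FPKM in NaCl-treated WT, against 7.76 to 13.7 FPKM over the untreated libraries. The lowest NaCl value thus lay within the untreated range, that of set 1, although within each genotype the groups did not overlap, and the log2 difference was 0.91 in WT (standard error 0.21, adjusted p = 0.0108). MPK11 (AT1G01560), the closest paralog of MPK4, had 1.71 to 3.08 FPKM with NaCl and 0.133 to 0.742 FPKM untreated, with a log2 difference of 1.36 in WT (standard error 0.22, adjusted p = 0.00237). MPK11 was tested only through the NaCl libraries and so had to differ. MPK12, which acts in guard cells, was called lower with NaCl only in seedlings labelled AtC3H26 OX, where it had 9.24 and 9.25 FPKM with NaCl and 13.2 and 14.4 FPKM untreated (log2 difference -0.53, adjusted p = 0.00267).

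Of the 7 group D genes, MPK19 had the largest difference in WT, and MPK16 was called lower in both lines. MPK19 (AT3G14720) had 25.5 to 29.4 FPKM with NaCl and 12.9 to 17.3 FPKM untreated, ranges that lay apart, and its log2 difference in WT was 0.93 (standard error 0.11, adjusted p = 0.000669). MPK15 was called in seedlings labelled AtC3H3 OX (0.20, adjusted p = 0.0242) and in WT (0.40, adjusted p = 0.0215), but either call was lost when single libraries were left out. MPK16 (AT5G19010) had 20.7 and 19.2 FPKM in NaCl-treated seedlings labelled AtC3H3 OX, against 28.6 and 27.6 FPKM untreated, and 20.4 and 21.3 FPKM in those labelled AtC3H26 OX, against 27.4 and 26.9 FPKM untreated. The log2 differences were -0.47 (adjusted p = 0.000869) and -0.37 (adjusted p = 0.00343), and that in WT was -0.38 (standard error 0.14, adjusted p = 0.0565). MPK17 was called higher only in seedlings labelled AtC3H3 OX, by 0.11 (adjusted p = 0.047), and this difference was -0.02 after quantile normalization. MPK9, MPK18 and MPK20 were not called in any salt comparison.

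**Figure D3:**
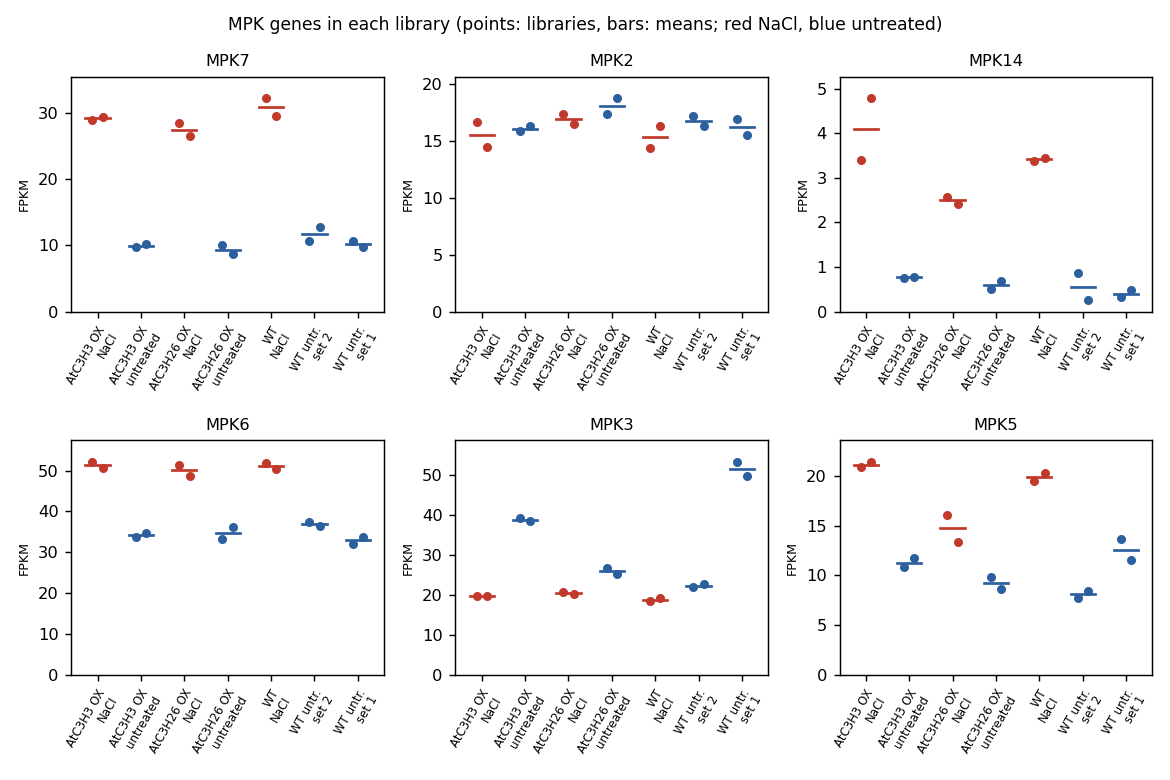
FPKM of 6 MPK genes in each library, on axes that start at 0, with NaCl groups in red to the left of the untreated groups of the same genotype in blue and a bar at each group mean of 2 libraries. MPK7, MPK14 and MPK6 are higher in all NaCl libraries, and MPK14 met the minimum only through them. MPK2 is level. The untreated values of MPK3 range from 21.8 to 53.2 FPKM while those with NaCl stay between 18.3 and 20.6 FPKM.

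The sets of untreated WT, which share genotype, age and growth conditions in the labels, differed in 5 of 33 genes tested. All 5 were lower in set 2 than in set 1 (limma, 2 against 2) and 0 were higher, beside 7.32% lower and 2.81% higher of 19783 genes. MPK3, at the levels given above, differed by -1.18 (standard error 0.07, adjusted p = 0.000326) and MKK9 by -1.35 (standard error 0.10, adjusted p = 0.000912), both over 2-fold, as were 1.72% of genes. MKK4 differed by -0.68 (adjusted p = 0.0165) and MPK5, at 7.76 and 8.40 FPKM in set 2 and 13.7 and 11.5 FPKM in set 1, by -0.58 (adjusted p = 0.024). MPK17 had 43.6 and 41.8 FPKM in set 2, against 55.4 and 54.7 FPKM in set 1, a difference of -0.36 (adjusted p = 0.0192). MKK9 and MPK3 were called whichever library was left out. MKK4 and MPK5 were lost without replicate 1 of set 1 or either replicate of set 2, and MPK17 without either replicate of set 1. Genes known to respond to touch moved with these 5 genes. The summed level of 9 such genes was 40.6 to 47.5 FPKM in set 2 and 347 to 356 FPKM in set 1, and 7 of 7 tested were lower in set 2. Their sum was 349 to 357 FPKM in untreated libraries labelled AtC3H3 OX, 113 to 115 FPKM in untreated libraries labelled AtC3H26 OX and 379 to 395 FPKM in NaCl-treated WT. In set 2, 3 of 7 salt response genes were also higher, such as RD29A with 138 and 116 FPKM in set 2 and 74.9 and 70.5 FPKM in set 1, and so was 1 of 3 root genes, CASP1, with 42.1 and 36.2 FPKM in set 2 and 28.7 and 27.0 FPKM in set 1. The part of handling, salt response and root tissue in these differences was not tested.

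**Figure D4:**
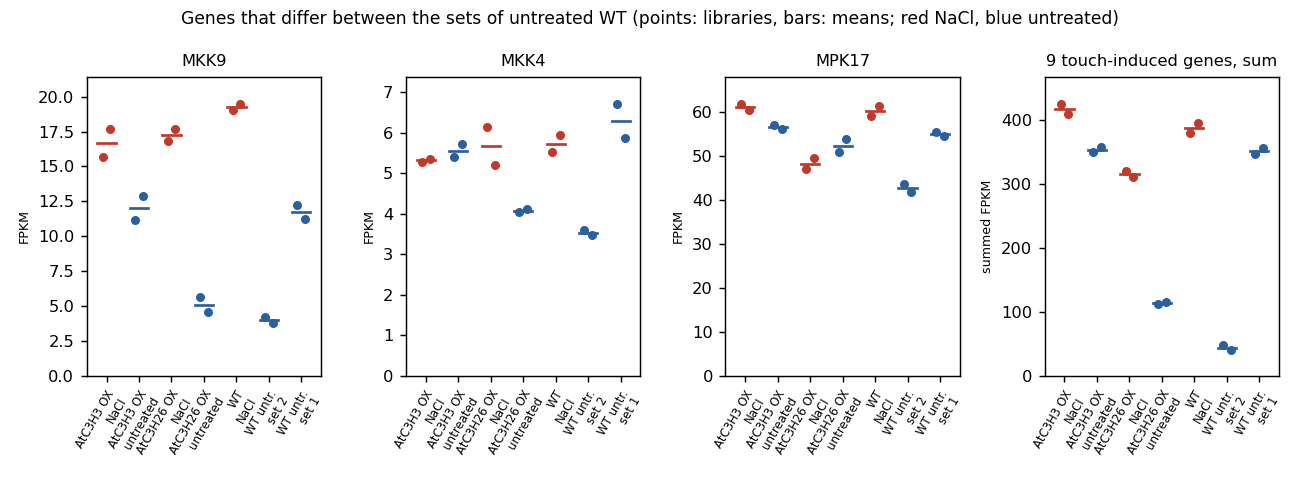
FPKM of MKK9, MKK4 and MPK17 and the summed FPKM of 9 touch-induced genes in each library, on axes that start at 0, with NaCl groups in red to the left of the untreated groups of the same genotype in blue and a bar at each group mean of 2 libraries. Set 2 of untreated WT lies below set 1 in all 4 panels, and the touch-induced genes sum to 40.6 to 47.5 FPKM in set 2 and 347 to 356 FPKM in set 1.

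Without NaCl, 0 of 33 genes were called in either line against both sets of WT. In seedlings labelled AtC3H3 OX, 3 genes were higher and 1 lower at an unadjusted p under 0.05, beside 3.3% higher and 6.83% lower of 20056 genes. By adjusted p, 0.0199% of these genes were higher and 0.0249% lower. In seedlings labelled AtC3H26 OX, 4 genes were higher and 0 lower at an unadjusted p under 0.05, beside 6.17% higher and 9.49% lower of 20174 genes. By adjusted p, 0.828% of these genes were higher and 0.823% lower. The result depended on the set of WT. Against set 2 alone, seedlings labelled AtC3H3 OX were higher in MAPKKK14, MKK4, MKK9, MPK3, MPK5 and MPK17 (6 of 33, where 8.46% of all genes were higher, and 0 lower, where 5.87% were), and against set 1 alone they were lower in MPK3 only (1 of 33, where 1.6% were lower, and 0 higher, where 0.864% were). Seedlings labelled AtC3H26 OX were lower in MKK4, MKK9 and MPK3 against set 1 alone (3 of 32, where 8.62% were lower) and higher in MPK20 (where 3.6% were higher), and against set 2 alone they were higher in MAPKKK14 only (1 of 32, where 5.07% were higher, and 0 lower, where 4.5% were). MPK3 was thus placed below set 1 and above set 2 in untreated seedlings labelled AtC3H3 OX and AtC3H26 OX, with 39.0 and 38.3 FPKM in those labelled AtC3H3 OX and 26.6 and 25.1 FPKM in those labelled AtC3H26 OX, and only its difference of 0.21 between AtC3H26 OX and set 2 was not called.

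With NaCl, MAPKKK18, MAPKKK17, MAPKKK13 and MPK17 were lower in seedlings labelled AtC3H26 OX than in WT. These were 3 of 16 MAPKKK genes, 0 of 6 MKK genes and 1 of 17 MPK genes. Of the 39 genes tested 4 were lower and 0 higher, beside 4.54% lower and 2.55% higher of 19670 genes (limma, 2 against 2). MAPKKK18, with 19.3 and 18.7 FPKM in seedlings labelled AtC3H26 OX and 39.6 and 39.8 FPKM in WT, differed by -1.03 (standard error 0.05, adjusted p = 0.00221). MAPKKK17 had 16.3 and 15.0 FPKM in seedlings labelled AtC3H26 OX and 22.4 and 20.8 FPKM in WT (log2 difference -0.44, adjusted p = 0.0267). MAPKKK13, with the values given above, differed by -0.39 (adjusted p = 0.0178), and MPK17 had 47.0 and 49.5 FPKM in seedlings labelled AtC3H26 OX and 59.1 and 61.3 FPKM in WT (log2 difference -0.31, adjusted p = 0.0243). The groups did not overlap in any of these genes. All 4 calls were lost without either of the WT libraries with NaCl, where the adjusted p of MAPKKK18 was at most 0.10, and without replicate 2 of seedlings labelled AtC3H26 OX the call of MAPKKK17 was lost. Salt and abscisic acid response genes moved in the same direction, with 5 of 7 lower and a sum of 3304 to 3581 FPKM in seedlings labelled AtC3H26 OX and 4987 to 5034 FPKM in WT, and so did 5 of 9 touch-induced genes. Without NaCl, 3 of the 7 salt and abscisic acid response genes were also lower for AtC3H26 OX, beside 0.823% of all genes. The 7 genes then summed to 160 to 161 FPKM, against 300 to 305 FPKM in set 1 and 375 to 396 in set 2. For the difference in salt response between AtC3H26 OX and WT, described below, 0 of the 7 were called, with a median of 0.30. Of all genes, 0.671% were called larger and 0.752% smaller. The part of the untreated levels and of the strength or timing of the treatment was not tested.

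In NaCl-treated seedlings labelled AtC3H3 OX, 1 of 39 genes was lower than in NaCl-treated WT and 0 were higher, beside 1.37% lower and 1.3% higher of 19642 genes. The gene was again MAPKKK18, with 29.9 and 31.8 FPKM in seedlings labelled AtC3H3 OX and 39.6 and 39.8 FPKM in WT, which did not overlap. Its log2 difference was -0.35 (standard error 0.05, adjusted p = 0.0314) and was not called without either WT library or without replicate 1 of those labelled AtC3H3 OX. MAPKKK17, with 16.7 and 17.4 FPKM against 22.4 and 20.8 FPKM in WT, and MAPKKK21, with 3.08 and 3.72 FPKM against 5.70 and 5.18 FPKM in WT, had adjusted p of 0.0648 and 0.0813. Of the 7 salt response genes 2 were higher in seedlings labelled AtC3H3 OX and 0 lower. RD29B, an abscisic acid response gene, had 72.5 and 74.0 FPKM in seedlings labelled AtC3H3 OX and 45.7 and 47.5 FPKM in WT, and P5CS1, an enzyme of proline synthesis, had 332 and 326 FPKM in seedlings labelled AtC3H3 OX and 285 and 276 FPKM in WT. The sum of the 7 genes, most of it not from these 2, was 4933 to 5015 FPKM in seedlings labelled AtC3H3 OX and 4987 to 5034 FPKM in WT. Both lines were compared with the same WT libraries with NaCl, and so the lower values of MAPKKK18 in both are not independent.

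**Figure D5:**
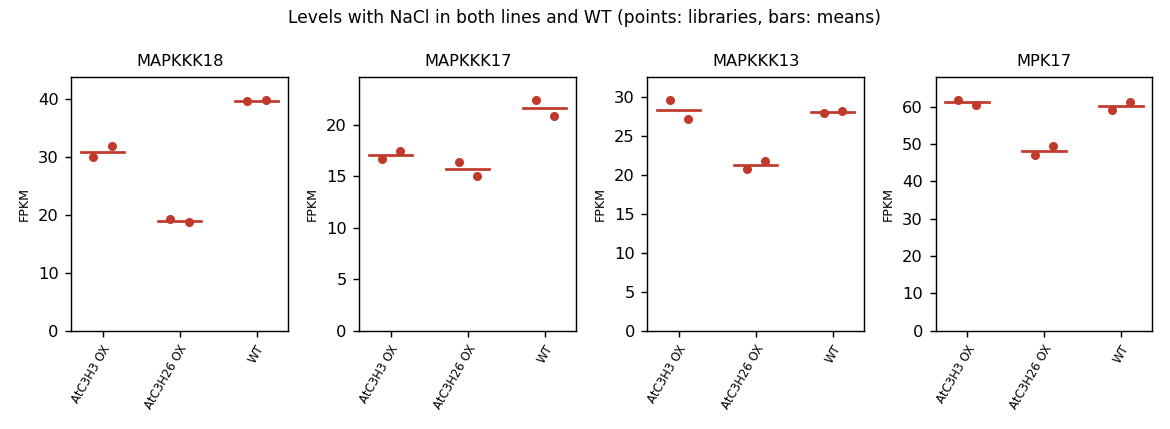
FPKM with NaCl of MAPKKK18, MAPKKK17, MAPKKK13 and MPK17 in seedlings labelled AtC3H3 OX, those labelled AtC3H26 OX and WT, on axes that start at 0, with a bar at each mean of 2 libraries. Seedlings labelled AtC3H26 OX lie below WT in all 4 panels, with 19.3 and 18.7 FPKM against 39.6 and 39.8 FPKM for MAPKKK18.

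Whether the salt response itself differed was tested by an interaction term, the response in a line minus that in WT, over 10 libraries. For AtC3H26 OX the responses of MAPKKK18 (-0.98, standard error 0.12, adjusted p = 0.00912) and MAPKKK13 (-0.78, standard error 0.14, adjusted p = 0.037) were smaller than in WT, 2 of 39 genes, beside 0.752% smaller and 0.671% larger of 20878 genes. Both calls were lost without either NaCl library of WT, without either NaCl library labelled AtC3H26 OX, without untreated replicate 2 labelled AtC3H26 OX, and with a pseudocount of 0.1. Without replicate 1 of set 1, replicate 1 of set 2 or untreated replicate 1 labelled AtC3H26 OX, MAPKKK18 alone was called. For AtC3H3 OX 0 of 39 genes were called, with 0 larger and 3 smaller at an unadjusted p under 0.05, beside 6.22% larger and 3.6% smaller of 20797 genes. By adjusted p, 0.0385% of these genes were called in each direction. Here too the set of WT mattered. The interaction of MPK3 and AtC3H26 OX was 1.08 with set 1 alone, which was called, and -0.10 with set 2 alone, which was not. That of MPK3 and AtC3H3 OX was 0.47 with set 1 alone and -0.71 with set 2 alone, both called in opposite directions. The interactions of MAPKKK18 and MAPKKK13 with AtC3H26 OX were called with either set alone.

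The 7 cascade genes listed under older names were also tested in WT, where 1 of 7 was higher with NaCl and 2 were lower, beside 25.6% and 25.5% of all genes. MAPKKK3 (AT1G53570), which acts in immune signalling above MKK4 and MKK5, had 28.1 and 27.1 FPKM in NaCl-treated WT and 14.1 to 15.4 FPKM in the 4 untreated WT libraries (log2 difference 0.85, standard error 0.07, adjusted p = 9.31e-05), and these groups did not overlap. MPK8 differed by -0.22 (adjusted p = 0.0335). MPK13 had 0.665 and 0.585 FPKM in NaCl-treated WT and 1.03 to 1.51 FPKM in untreated WT, so that it was tested only through the untreated libraries and had to differ. MKK1 (AT4G26070), the paralog of MKK2, had 5.26 and 5.20 FPKM in NaCl-treated WT and 3.56 to 6.11 FPKM in untreated WT, which overlapped, and its difference of 0.12 (standard error 0.17) was not called. ANP1, ANP2 and ANP3, which act above MKK6 in cytokinesis, were not called.

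Of 17 other genes for kinases that resemble MAPKKK proteins, from the Raf, WNK and MAP4K families and YDA, 7 were higher and 3 lower in WT with NaCl, beside 25.6% and 25.5% of all genes, with a median of 0.27 against -0.02 for all genes. SIK1, a MAP4K of cell proliferation and immunity, had 19.8 and 21.6 FPKM with NaCl and 10.1 to 11.6 FPKM untreated (0.88, adjusted p = 0.000183). WNK4 differed by 0.78 (adjusted p = 0.00156) and VIK by 0.66 (adjusted p = 0.00029). WNK6 had 5.76 and 6.17 FPKM with NaCl and 13.0 to 14.1 FPKM untreated (-1.08, adjusted p = 5.27e-05), and WNK2 and WNK3 also were lower, by -0.78 and -0.77. YDA, which controls stomatal patterning, and CTR1, the negative regulator of ethylene signalling, had differences of 0.06 and 0.14 that were not called.

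Among 9 phosphatase genes that act on MAP kinases, 5 were higher in NaCl-treated WT and 0 lower, beside 25.6% and 25.5% of all genes, with a median of 0.29. AP2C3 (AT2G40180) had 2.75 and 2.81 FPKM with NaCl and 0.294 to 0.515 FPKM untreated (1.42, adjusted p = 0.000166), and AP2C2 (AT1G07160) had 2.32 and 2.24 FPKM with NaCl and 0.0792 to 0.566 FPKM untreated (1.40, adjusted p = 0.000932). Both lay apart from the untreated libraries, but both were tested only through the NaCl libraries and so had to differ. MKP1, a negative regulator of MPK3 and MPK6, had 20.6 and 21.0 FPKM with NaCl and 13.8 to 16.6 FPKM untreated (0.41, adjusted p = 0.007). AP2C1, which acts on MPK4 and MPK6, had 10.1 and 10.7 FPKM with NaCl, 5.53 and 6.29 FPKM in untreated set 2 and 12.0 and 10.7 FPKM in untreated set 1, and was not called.

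Of 20 genes for known MPK substrates, 10 were higher and 1 lower in NaCl-treated WT, beside 25.6% and 25.5% of all genes, with a median of 1.01. ZAT6 (AT5G04340), a zinc-finger transcription factor, had 121 and 115 FPKM with NaCl and 3.21 to 8.38 FPKM untreated (4.25, adjusted p = 0.000127). ACS2 (AT1G01480), an enzyme of ethylene synthesis, had 11.5 and 11.0 FPKM with NaCl and 0.232 to 0.718 FPKM untreated (3.05, adjusted p = 1.54e-05), and it too was tested only through the NaCl libraries. ZAT10 had 56.0 and 55.5 FPKM with NaCl, 1.89 and 2.06 FPKM in set 2 and 18.9 and 18.0 FPKM in set 1 (2.9, adjusted p = 0.0337). BES1, a transcription factor of brassinosteroid signalling, was the gene that was lower, with 49.8 and 48.4 FPKM with NaCl and 103 to 116 FPKM untreated (-1.13, adjusted p = 2.56e-05). WRKY33, a target of MPK3 and MPK6, had 44.8 and 44.2 FPKM with NaCl, 5.17 and 7.51 FPKM in set 2 and 68.7 and 68.5 FPKM in set 1, and so lay between the sets of untreated WT. Between the sets, 11 of 19 substrate genes were lower in set 2 than in set 1, beside 7.32% of all genes.

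Upstream of the cascades, 16 genes for receptors, receptor-associated kinases and scaffolds were tested in WT. With NaCl 9 were higher and 4 lower, beside 25.6% and 25.5% of all genes, with a median of 0.53. PEPR2 had 1.86 and 2.19 FPKM with NaCl and 0.553 to 0.775 FPKM untreated. It was tested only through the NaCl libraries and so had to differ. PEPR1, the receptor of Pep danger peptides, had 33.3 and 34.6 FPKM with NaCl and 8.44 to 11.3 FPKM untreated (1.71, adjusted p = 9e-05), EFR, the receptor of bacterial EF-Tu, differed by 1.65 (adjusted p = 0.000157) and the kinase BIK1 by 1.41 (adjusted p = 0.0056). The scaffold genes RACK1C and RACK1B were lower by -0.85 and -0.81, and ERL2 and ERL1, receptors in stomatal patterning, by -0.52 and -0.47. FLS2 was matched only through an older name, listed at 0 in every library, and so its level is not known here. In the SnRK2 family, which acts beside the cascades in abscisic acid signalling, 5 of 10 genes were higher and 1 was lower, beside the same shares of all genes, with a median of 0.24. SNRK2.7 had 14.6 and 15.7 FPKM with NaCl and 2.38 to 2.76 FPKM untreated (2.17, adjusted p = 6.08e-06), SNRK2.10 differed by 0.81 and SNRK2.6, also called OST1, by 0.64, whereas SNRK2.1 was lower by -0.27 (adjusted p = 0.0111).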

How the data were processed

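The authors made mRNA-Seq libraries from whole seedlings, trimmed the reads, mapped them to TAIR10 with TopHat and estimated FPKM with Cufflinks, and they deposited 1 file of FPKM values per library. The methods name a quantile normalization, but the upper quartile of the deposited FPKM ranged from 18.2 to 20.2 between libraries. A strand setting of the counting is not given in the sources used here. The 218 rows without a gene name were at 0 and were left out. Names and loci were taken from the RefSeq annotation of TAIR10.1, in which all 39 genes were matched, and overlaps of genes were read from it.

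Differences were tested with limma 3.58.1 (eBayes with trend, two-sided; R 4.3.3). The values were log2(FPKM + 1), and a gene was tested where 2 or more libraries compared reached 1 FPKM. All such genes were fitted and adjusted by the Benjamini-Hochberg method, and a gene was called at an adjusted p under 0.05. With 2 libraries per group, p measures the spread between these libraries only, which may be partly technical. On simulated data, the fit for WT with NaCl recovered 92% of genes changed by 1 and 99% of those changed by 2 on the log2 scale among 20116 genes, with 4.02% false calls. The fit of 2 against 2 for AtC3H3 OX with NaCl recovered 81% and 94% among 19794 genes, with 2.78% false calls. In each simulation 200 genes were changed, whereas 5233 genes were called higher and 5211 lower in WT with NaCl. The changed genes had a mean log2(FPKM + 1) above 2, so that low genes such as MAPKKK20 and MPK11 were not among them. These simulated rates therefore need not hold for the real fits. In particular, they may not describe genes such as MPK3 and MKK9, whose untreated WT levels fell into separate low and high groups.

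The alternatives were log2(FPKM + 0.1), no filter, quantile normalization, a replicate block, all 14 libraries in 1 fit, each set of untreated WT alone and leaving out each library. Where a library of a group of 2 was left out, 1 library remained in it. The spread then came from the other groups only, so such fits say little about the spread of that group. Full statistics were given for the genes of the best known cascades and, in each comparison, for called genes with the largest differences and groups that did not overlap. From each further list, up to 3 genes per direction were named by that order, and others were named after their values were seen. The genes, lists and tests were chosen with earlier results of these data known. Sequences of promoters and proteins were not used here.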

Additional observations from a re-analysis of the deposited data

Results flagged for a closer look

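In MKK2, 1 of the 4 untreated WT libraries stood apart, with 18.2 FPKM in replicate 1 of set 2 and 20.3 to 20.4 FPKM in the others. Its gap to the nearest value was 0.924 of the range, above the limit of Dixon's test. In MAPKKK19, replicate 2 of set 1 had 0.191 FPKM and the other 3 untreated WT libraries 0.410 to 0.448 FPKM, with a gap of 0.854 of the range. Chance gives about 1 such case in 20 groups, and 2 of the 39 groups tested had one. The difference between the salt response in libraries labelled AtC3H26 OX and that in WT passed its test in MAPKKK18 (-0.976) and MAPKKK13 (-0.782), the interaction described above.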

How the results depend on the processing

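Counts below are of the genes called higher or lower. Shares of all genes are given above for each set of untreated WT alone, except for the interactions. For the interactions and the other alternatives such shares are not given. Whether such a count moved with the share of all genes is therefore not known. In the salt response of WT, the 0 lower calls became 2 after quantile normalization and with all 14 libraries in 1 fit, 3 with set 1 and 1 with set 2 of untreated WT alone, and 0 to 1 when single libraries were left out. The 18 higher calls became 13 to 19 when single libraries were left out and 17 to 22 under the other alternatives. In libraries labelled AtC3H3 OX, the 21 higher calls became 15 to 17 when single libraries were left out and 17 to 21 under the other alternatives, and the 2 lower calls became 4 after quantile normalization. For AtC3H26 OX, the 18 higher calls became 14 to 15 when single libraries were left out and 15 to 20 under the other alternatives, and the 3 lower calls became 6 after quantile normalization and with all libraries in 1 fit. MKK3 in WT, at -0.03, was 0.028 with set 1 alone and ranged from -0.076 to 0.024 when single libraries were left out. MKK4 was -0.112 with set 1 alone, and MPK17 for AtC3H3 OX was -0.024 after quantile normalization.

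With NaCl, the 1 lower call of AtC3H3 OX against WT became 0 without a filter and 0 to 1 when single libraries were left out. The 4 lower calls of AtC3H26 OX became 2 without a filter and 0 to 5 when single libraries were left out, and 1 higher call came with quantile normalization. Without NaCl, where 0 genes were called, AtC3H3 OX had 5 higher and 1 lower with all libraries in 1 fit, 6 higher with set 2 alone and 1 lower with set 1 alone. AtC3H26 OX had 3 higher and 2 lower with all libraries, 1 higher and 3 lower with set 1 alone and 1 higher with set 2 alone. Between the WT sets, the 5 lower calls became 3 without a filter, 8 with all libraries and 2 to 4 when single libraries were left out, and the 0 higher calls became 1 after quantile normalization, 2 with all libraries and 0 to 2 when single libraries were left out. The interaction of AtC3H3 OX and NaCl had 1 larger response with set 1 alone, 1 smaller with all libraries and 6 smaller with set 2 alone. That of AtC3H26 OX, with 2 smaller responses, had 0 with log2(FPKM + 0.1), 1 with the replicate block, 6 with all libraries, 6 with set 2 alone and 0 to 2 when single libraries were left out, and it had 1 larger response with all libraries and 2 with set 1 alone. The cause of these changes was not tested, and the interaction counts under these alternatives have no share of all genes beside them.

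Replicates with the same number did not deviate together over all genes (r of -0.085 to 0.092 over 21 pairs of groups). The labels give no link between them beyond the number, and whether they share a batch cannot be read from these values. With the replicate block, the salt calls were 18 higher and 0 lower in WT, 20 and 2 for AtC3H3 OX and 17 and 4 for AtC3H26 OX. Absolute depth cannot be read from the FPKM values, and genes under 1 FPKM are limited by it.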
